A study of Mus musculus with 6 samples.

Results

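Ribosome biogenesis genes encode the proteins that make ribosomes in the nucleolus. RNA polymerase I copies the ribosomal RNA genes there into a long precursor, small nucleolar ribonucleoproteins (snoRNPs) modify it, and assembly factors cut and fold it into the small and large subunits. Naive CD4 T cells, the helper cells that have not yet met antigen, run this machinery at a low rate, and raise it steeply when they are activated and begin to grow. The 40 genes described here were chosen by symbol, with earlier results of these data known. A row in the table was found for 39 of them, out of 16911 named genes in 19048 transcript rows. The exception was Nolc1, a chaperone of snoRNPs, which enters only the promoter counts below. Where a symbol had several rows, the row with the highest total stood for the gene.

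The 6 RNA-seq libraries held naive CD4 T cells from C57BL/6 animals, and comprised 3 of Trim28 KO mice (KO1 to KO3) and 3 of their wild-type littermates (WT1 to WT3). Trim28 silences genes and retroelements as a partner of KRAB zinc finger proteins. The cells were enriched on magnets and flow sorted, with no stimulation named for these 6 libraries. The labels name no promoter or Cre behind the knockout and no age, and do not say whether each library is a separate mouse. A p-value therefore reflects how far these libraries vary, which may be technical in part. All values below are normalized read counts, meaning reads divided by a size factor of the library, and a log2 fold change is KO over WT on log2 of that count plus 1. Because the counts are not divided by transcript length, levels are not compared between genes. RNA was read in bulk, so less RNA per cell and fewer cells of a kind cannot be told apart.

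Depth ran from 22005759 to 44372701 reads. Trim28 was at 738, 628 and 1247 in KO1, KO2 and KO3, against 8429, 8287 and 9428 in WT1, WT2 and WT3. Its fold change was -3.38 on the log2 scale, with SE 0.22 and a limma adjusted p of 0.000135, and the KO3 value was the highest of the knockout values. T cell identity was present in all 6 libraries: Cd4 lay between 27990 and 32564 in KO libraries and between 31880 and 34970 in WT libraries. KO3 also stood apart in markers of other cells. The summed counts of 7 B cell markers were 277 to 3657 in KO libraries, with KO3 at the top, and 256 to 643 in WT libraries. Those of 10 cycling-cell markers were 13254 to 22422 in KO libraries and 15092 to 18938 in WT libraries, and those of 2 CD8 T cell markers 708 to 4416 in KO libraries and 561 to 1065 in WT libraries. Single cycling-cell markers differed from their sum. Mki67 was at 568, 506 and 4624 in KO1, KO2 and KO3, against 1065, 771 and 1331 in WT1, WT2 and WT3. Pcna, at a higher count, was at 7577, 7868 and 7577 in KO libraries, against 9819, 8275 and 10154 in WT libraries. KO3 was the highest library in each of these sums, and no listed marker of these 3 kinds was called. The same held for effector or memory T cells (4668 to 8581 in KO libraries, 4833 to 5065 in WT libraries), myeloid cells (141 to 1219 in KO libraries, 144 to 321 in WT libraries) and natural killer cells (677 to 2011 in KO libraries, 933 to 1081 in WT libraries). Regulatory T cell markers summed to 2775 to 5362 in KO libraries and 1981 to 2357 in WT libraries, with 1 gene called, Il2ra. Naive T cell markers summed to 66042 to 91604 in KO libraries and 84784 to 100690 in WT libraries, activated T cell markers to 15989 to 17387 in KO libraries and 17145 to 20805 in WT libraries, and erythroid markers to 3.57 to 105 in KO libraries and 13.1 to 89.2 in WT libraries. No marker with a row was at 0 in all libraries. The counts of 4 Y-linked genes summed to 12677 in KO2 and 13625 in WT1 and to at most 2.39 in the other libraries. Each group thus held libraries of both sexes, so the libraries of a group were not all from the same mouse. The part of these markers in the results below was not tested, and the counts and medians of the lists are also given without KO3.

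In Trim28 KO cells no gene of the ribosome biogenesis list passed the test, and most had a log2 fold change somewhat below 0. Limma called 0 of the 39 genes higher and 0 lower at an adjusted p under 0.05, while it called 1.51% of all 13022 rows tested, 1.19% higher and 0.315% lower. The smallest adjusted p of the 39 was 0.185. The log2 fold changes ran from -0.34 for Npm1 to 0.29 for Polr1e. They leaned to the lower side, with 31 below 0 and 8 above it. Their median was -0.14, against 0.0019 over all rows tested, of which 49.6% were below 0. An unadjusted limma p under 0.05 was reached by 10 genes, each of them lower in KO cells, and by 0 genes higher in KO cells. Over all rows those shares were 5.84% lower and 6.84% higher. With voom weights on recovered reads, limma also called 0 of the 39 and again found 10 lower genes at an unadjusted p under 0.05, with 1.23% of all rows called and 5.77% lower at that p.

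The 3 KO values lay wholly below the 3 WT values in 15 genes (38.5% of the 39), against 9.58% of all rows. They lay wholly above in 1 gene, Utp15, against 9.21% of all rows. In 23 genes the groups overlapped. Without KO3, limma called 0 of the genes but 4.32% of all rows, the median was -0.12 and 11 genes were lower at an unadjusted p under 0.05, while the share of all rows that were lower at that p went to 9.48%. Without WT1 the 10 genes at that p became 2, with all rows at 3.06%, and without WT3 they became 6, with all rows at 4.25%. The lean also depended on how libraries were put on 1 scale. With each library scaled to the same total, 3 genes were lower at an unadjusted p under 0.05 (3.39% of all rows), 8 lay wholly below (5.24% of all rows) and the median was -0.08. The median over all rows was 0.06 there. Since 1 factor per library shifts nearly all rows alike, the distance between the list and all rows could hardly move from -0.14. With quantile normalization, which does not use 1 factor per library, that distance was -0.10.

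**Figure D1:**
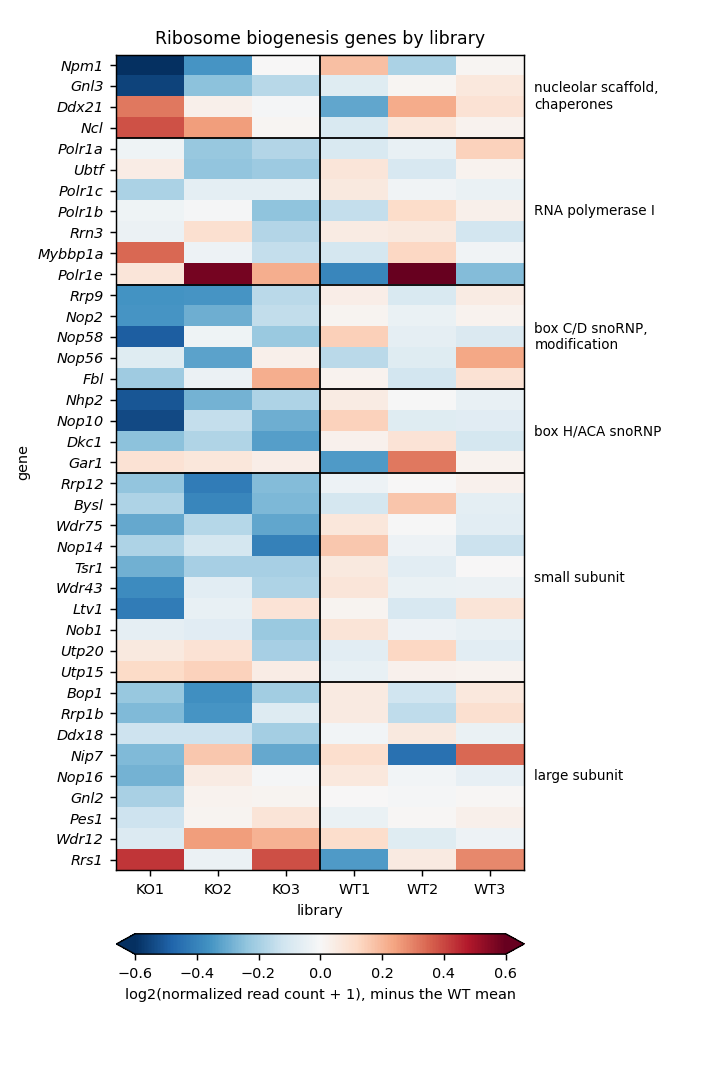
Each cell is log2(normalized read count + 1) of a gene in a library, minus the mean of the 3 WT libraries, for the 39 genes in rows by role and the 6 libraries in columns, KO on the left. Blue is below and red above the WT mean, and colours stop at 0.6 in either direction. Blue prevails in the KO columns of the snoRNP and small subunit genes, while Ncl, Ddx21 and Rrs1 are red in KO1.

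By library, the median of the 39 genes relative to the WT mean was -0.19, -0.06 and -0.17 on the log2 scale in KO1, KO2 and KO3, against 0.02, -0.02 and 0.01 in WT1, WT2 and WT3. KO2 was thus nearest to the WT libraries, and KO3 lay between the other KO libraries. Of the 3 KO values, the lowest was that of KO1 in 17 genes, of KO3 in 14 and of KO2 in 8. The genes as a whole took 0.342%, 0.341% and 0.357% of all normalized counts in KO1, KO2 and KO3, and 0.344%, 0.353% and 0.365% in WT1, WT2 and WT3. These shares overlapped between the groups.

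The promoters of these genes are shown because MYC, the factor best known for driving ribosome biogenesis, binds the E-box CACGTG with its partner MAX. RefSeq windows of build GRCm38.p6, from 250 bases before to 50 bases after the start, were at hand for 34 of the 40 genes, Nolc1 among them. An E-box on either strand (the motif reads the same on both) was in 8 of the 34 windows (23.5%), against 7.90% of 17491 windows of protein-coding genes, 1 window per gene. Of the 8 genes, 2 (Nop2 and Tsr1) were among the 10 with an unadjusted limma p under 0.05. The share lower at that p was 25.6% of the 39 genes and 5.84% of all rows. The median log2 fold change of the 8 was -0.08. A match is a run of letters, not a measured binding site. The 9 sites follow as 30 bases each, in the direction of the gene, with the E-box in capitals, and 6 of them begin after the start of the transcript.
Nop2 (chr6:125131811-125131840, plus strand): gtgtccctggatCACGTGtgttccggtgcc
Ltv1 (chr10:13193092-13193121, minus strand): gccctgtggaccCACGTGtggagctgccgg
Utp20 (chr10:88826765-88826794, minus strand): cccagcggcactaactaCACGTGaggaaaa
Pes1 (chr11:3963965-3963994, plus strand): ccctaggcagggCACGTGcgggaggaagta
Mybbp1a (chr11:72441347-72441376, plus strand): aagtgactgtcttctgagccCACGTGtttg
Tsr1 (chr11:74898092-74898121, plus strand): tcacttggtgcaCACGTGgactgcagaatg
Rrn3, distal (chr16:13780472-13780501, plus strand): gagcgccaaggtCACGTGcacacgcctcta
Rrn3, proximal (chr16:13780639-13780668, plus strand): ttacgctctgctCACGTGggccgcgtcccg
Wdr43 (chr17:71616220-71616249, plus strand): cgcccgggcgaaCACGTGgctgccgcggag

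Nop2 and Rrn3 held their E-boxes before the start, and the 250 bases that lead up to the start are given for both as examples of a gene whose KO libraries lay wholly lower and of one whose groups overlapped.
Nop2 (chr6:125131633-125131882, plus strand): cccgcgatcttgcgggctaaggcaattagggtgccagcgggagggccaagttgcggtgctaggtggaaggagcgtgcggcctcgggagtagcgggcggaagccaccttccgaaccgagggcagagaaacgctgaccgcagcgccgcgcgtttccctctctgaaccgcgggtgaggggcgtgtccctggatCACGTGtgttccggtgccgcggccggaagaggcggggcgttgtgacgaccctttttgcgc
Rrn3 (chr16:13780449-13780698, plus strand): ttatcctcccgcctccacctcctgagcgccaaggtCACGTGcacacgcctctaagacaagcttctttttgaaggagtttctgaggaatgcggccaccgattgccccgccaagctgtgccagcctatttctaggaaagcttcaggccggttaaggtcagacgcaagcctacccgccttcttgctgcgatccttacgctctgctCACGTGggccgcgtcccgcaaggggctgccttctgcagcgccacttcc

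Other motifs were counted in the same 34 windows on both strands. The GC box GGGCGG was in 26 of them (76.5%, against 46.3% of all 17491 windows), the ETS motif CCGGAAG in 10 (29.4%, against 11.9%) and the NRF1 motif in 5 (14.7%, against 6.60%). CCAAT was in 14 (41.2%, against 39.0%) and TATAAA in 2 (5.88%, against 13.3%). The median log2 fold change of the tested genes with each motif lay between -0.21 for the NRF1 motif and -0.08 for the E-box.

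Transcription of the ribosomal RNA genes is the first step of the pathway. The 7 genes of RNA polymerase I and its factors gave 0 with an unadjusted limma p under 0.05. Of all rows, 5.84% were lower and 6.84% higher at that p, so 0 of 7 is near those shares. Among the 7 log2 fold changes 5 were below 0, against 49.6% of all rows. Their median was -0.09, and -0.02 without KO3. Polr1a encodes the largest subunit of the enzyme. It was at 5803, 5055 and 5236 in KO1, KO2 and KO3, against 5540, 5723 and 6517 in WT1, WT2 and WT3, and the groups overlapped (log2 fold change -0.14, SE 0.10). Polr1b, the second-largest subunit, was at 1878, 1900.25 and 1616 in KO libraries, against 1730.5, 2062 and 1954 in WT libraries, again with overlap. Polr1c, a subunit shared with RNA polymerase III, was at 1731, 1900.25 and 1896 in KO libraries, against 2062, 1949 and 1923 in WT libraries. These Polr1c values lay wholly lower in KO cells by a small margin, with a log2 fold change of -0.10 (SE 0.09).

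Ubtf, which holds ribosomal DNA open for the polymerase, was at 533, 437 and 443 in KO libraries, against 542, 483 and 524 in WT libraries, and overlapped. Rrn3, which links the polymerase to the promoter in response to growth signals, had group means of 4251 ± 397 in KO libraries and 4359 ± 278 in WT libraries (SD, n = 3 each). The 95% interval of its log2 fold change was -0.26 to 0.19. Mybbp1a, a nucleolar protein that also binds MYB, was at 6499 in KO1, above the WT libraries, and at 5003 and 4633 in KO2 and KO3, against 4759, 5579 and 5034 in WT1, WT2 and WT3. Polr1e had the largest positive value of the list, 0.29, but on counts of 9.996, 14.6 and 11.2 in KO libraries and 6.97, 15.4 and 7.72 in WT libraries. Its 95% interval ran from -0.85 to 1.43, so the depth of that row could not show a difference of this size.

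Nucleolar scaffold proteins and RNA chaperones went in both directions. Ncl encodes nucleolin, an abundant RNA-binding protein that coats the ribosomal RNA precursor. It was at 14786, 13482 and 11440.5 in KO1, KO2 and KO3, against 10624, 11897 and 11517 in WT1, WT2 and WT3. KO1 and KO2 were above all WT libraries and KO3 was below WT2 and WT3, with a difference of 0.22 on the log2 scale (SE 0.11; limma adjusted p 0.473). It was 0.13 without KO1 and 0.32 without KO3. Ddx21, a helicase that works with RNA polymerases I and II, had 9507, 7815 and 7599 in KO libraries, against 6166, 8920.0 and 8127 in WT libraries. KO1 was the highest of the 6 libraries for both genes, and without WT1 the Ddx21 value turned to -0.04.

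Gnl3, the GTPase nucleostemin, was at 186, 230.2 and 243 in KO libraries, against 259, 275 and 285 in WT libraries, wholly lower in KO cells (-0.32, SE 0.15; limma adjusted p 0.419). Without KO1 its value was -0.21. Npm1 encodes nucleophosmin, the histone and ribosome chaperone of the outer nucleolus. Its row was at 713, 893 and 1146 in KO libraries, against 1294, 1001 and 1152 in WT libraries, and the groups overlapped because KO3 lay above WT2. The log2 fold change was -0.34 (SE 0.18). It was -0.18 without KO1 and -0.52 without KO3. That row, NM_001252261, is 1 of 3 curated RefSeq transcripts of Npm1, and the labels do not say how reads shared by them were divided, so the level of the whole gene is uncertain.

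The snoRNP genes also leaned lower. Box H/ACA snoRNPs turn uridine into pseudouridine in ribosomal RNA, and 3 of their 4 core proteins had KO values wholly below the WT values. The share of all rows wholly lower was 9.58%. Dkc1, the pseudouridine synthase dyskerin, was at 3347, 3511 and 3163 in KO1, KO2 and KO3, against 4041, 4200.3 and 3695 in WT1, WT2 and WT3 (log2 fold change -0.25, SE 0.09). Nhp2 was at 1057, 1242 and 1327 in KO libraries, against 1560.35, 1508 and 1464.5 in WT libraries (-0.33, SE 0.11). Nop10 was at 2626, 3455 and 3114 in KO libraries, against 4204, 3632 and 3642 in WT libraries (-0.33, SE 0.12). All 3 had an unadjusted p under 0.05 in limma, with adjusted p of 0.279, 0.239 and 0.296. Of all rows, 5.84% were lower at that unadjusted p. Gar1, the remaining core protein, was at 348, 344 and 338 in KO libraries, against 259, 409 and 333 in WT libraries, so its KO values lay within the WT range.

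Box C/D snoRNPs methylate ribosomal RNA. Fbl encodes their methyltransferase, fibrillarin, and had means of 1879 ± 287 in KO libraries and 1879.9 ± 129 in WT libraries (SD, n = 3 each). The 95% interval of its log2 fold change was -0.29 to 0.27. The paired core proteins Nop56 and Nop58 overlapped between the groups. Nop56 was at 4982, 4187 and 5352 in KO libraries, against 4673, 4982 and 6155 in WT libraries. Nop58 was at 4459, 6164 and 5379 in KO libraries, against 6927, 6046 and 5917 in WT libraries, with KO2 above WT2 and WT3.

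Rrp9, which binds the U3 snoRNA that guides the early cuts of the precursor, lay wholly lower in KO cells. It was at 1728, 1736 and 1982 in KO libraries, against 2280 (2279.86), 2084 and 2294 in WT libraries, which put the log2 difference at -0.29 (SE 0.09; limma adjusted p 0.238). Nop2 encodes a methyltransferase that marks a cytosine of the large ribosomal RNA, and its promoter is shown above. It was at 2177, 2272 and 2512 in KO libraries, against 2813, 2708 and 2821 in WT libraries, also wholly lower (-0.26, SE 0.09; limma adjusted p 0.253).

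**Figure D2:**
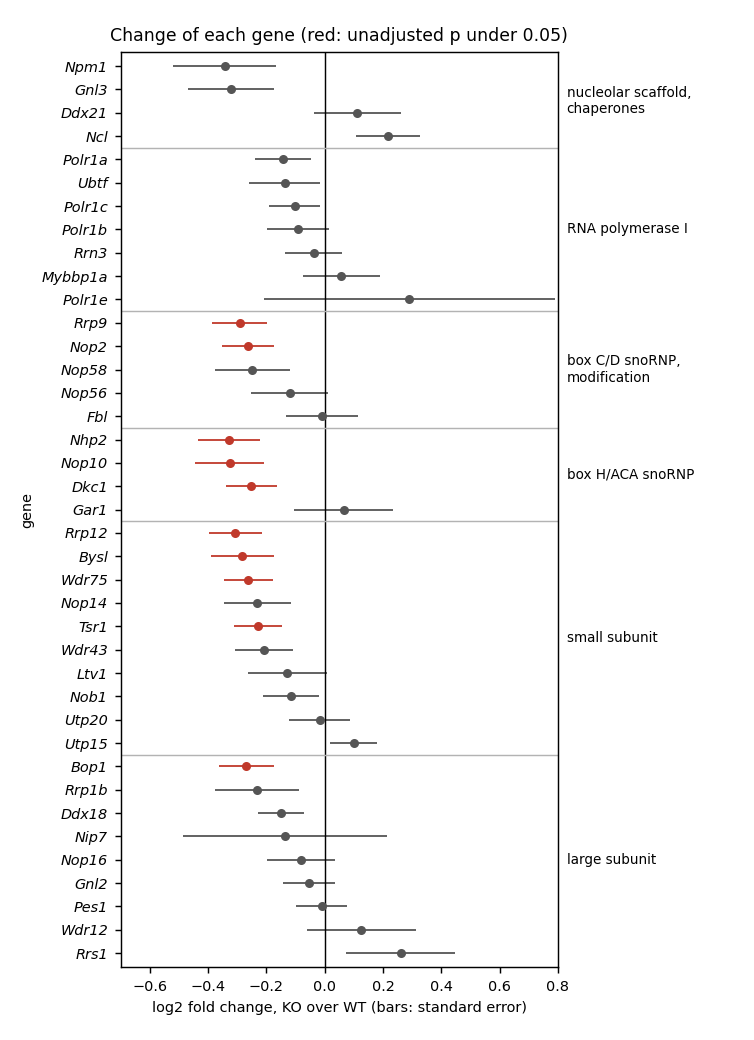
Points are the log2 fold changes of the 39 genes, KO over WT, with bars of 1 standard error from limma, grouped by role from top to bottom. The 10 genes in red had an unadjusted p under 0.05, all to the left of 0, and none passed after adjustment over all rows.

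Of the 10 genes of the small subunit processome and maturation, 6 had KO values wholly below the WT values and 1 wholly above. Over all rows the shares were 9.58% and 9.21%. The median of the 10 genes was -0.22. Rrp12, a transport and maturation factor of pre-ribosomes, had the smallest p of the list (chromosome 19, 41859483 to 41896153). It was at 1525, 1344 and 1500 in KO1, KO2 and KO3, against 1761, 1801 and 1832 in WT1, WT2 and WT3. The KO mean was 81.0% of the WT mean, and the log2 difference -0.31 (SE 0.09, 95% interval -0.51 to -0.10; limma p 0.00836, adjusted p 0.185). The WT values were close together, and the highest KO value was well below the lowest of them.

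Wdr75, a subunit of the complex that meets the precursor as it is made, was at 2764.5, 3037 and 2757 in KO libraries, against 3578, 3409 and 3270.4 in WT libraries. Tsr1, a GTPase-like factor of late small subunit assembly, was at 2664, 2834 and 2835 in KO libraries, against 3387, 3119.7 and 3266 in WT libraries. Bysl, a late factor that holds the head of the small subunit, was at 1169, 1014 and 1105 in KO libraries, against 1238, 1492 and 1277 in WT libraries. All 3 lay wholly lower in KO cells, with log2 fold changes of -0.26, -0.23 and -0.28 and limma adjusted p of 0.239, 0.284 and 0.326. Wdr43, a partner of Wdr75, and Nob1, the endonuclease that makes the last cut of the small ribosomal RNA, were also wholly lower, at -0.21 (SE 0.10) and -0.11 (SE 0.10).

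Nop14 (log2 fold change -0.23, SE 0.11), Ltv1 (-0.13, SE 0.13) and the large scaffold Utp20 (-0.02, SE 0.11) overlapped between the groups. Utp15, which sits in the same early complex as Wdr75 and Wdr43, was the only gene of the 39 with all KO values above all WT values. It was at 2411, 2448 and 2295 in KO libraries, against 2156, 2262 and 2258 in WT libraries, a small difference of 0.10 on the log2 scale (SE 0.08; limma adjusted p 0.657).

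The 9 large subunit genes had a median of -0.08, with 2 wholly lower (22.2%, against 9.58% of all rows) and 0 wholly higher. Bop1, Pes1 and Wdr12 form the PeBoW complex, which processes the precursor of the large subunit. Bop1 was at 2480 (2479.63), 2254 and 2512 in KO libraries, against 3022, 2672 and 3041 in WT libraries, wholly lower in KO cells (-0.27, SE 0.09; limma adjusted p 0.270). Its partner Pes1 was at 2793, 3079 and 3217 in KO libraries, against 2962, 3065 and 3114 in WT libraries, with a 95% interval of -0.21 to 0.19. Wdr12 was at 82.1, 103 and 100.4 in KO libraries, against 93.4, 82.5 and 85.0 in WT libraries, on a row that is 1 of 3 for that gene. Of the 3 PeBoW genes, Bop1 had an unadjusted limma p under 0.05, and differences between the genes were not tested.

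Ddx18, a helicase of large subunit assembly, was at 3636, 3646 and 3446 in KO libraries, against 3921, 4131 and 3856 in WT libraries, wholly lower by a small margin (-0.15, SE 0.08). Rrs1, which brings the 5S ribonucleoprotein into the large subunit, was at 661, 479 and 643 in KO libraries, against 388, 509 and 600.2 in WT libraries. Its log2 fold change of 0.26 (SE 0.19) came with overlap, and WT1 was the lowest of the 6 libraries. Without WT1 it was 0.09, and without KO2 0.41. Rrp1b was at 203, 191 and 231 in KO libraries, against 254, 220.1 and 261 in WT libraries, and overlapped. Gnl2 and Nop16 had log2 fold changes of -0.05 (SE 0.09) and -0.08 (SE 0.12). Nip7 (-0.14, SE 0.35) was read only from a non-coding row, NR_028367, at 20.7 to 29.1 in KO libraries and 18.7 to 33.2 in WT libraries, so its coding RNA was not measured here.

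**Figure D3:**
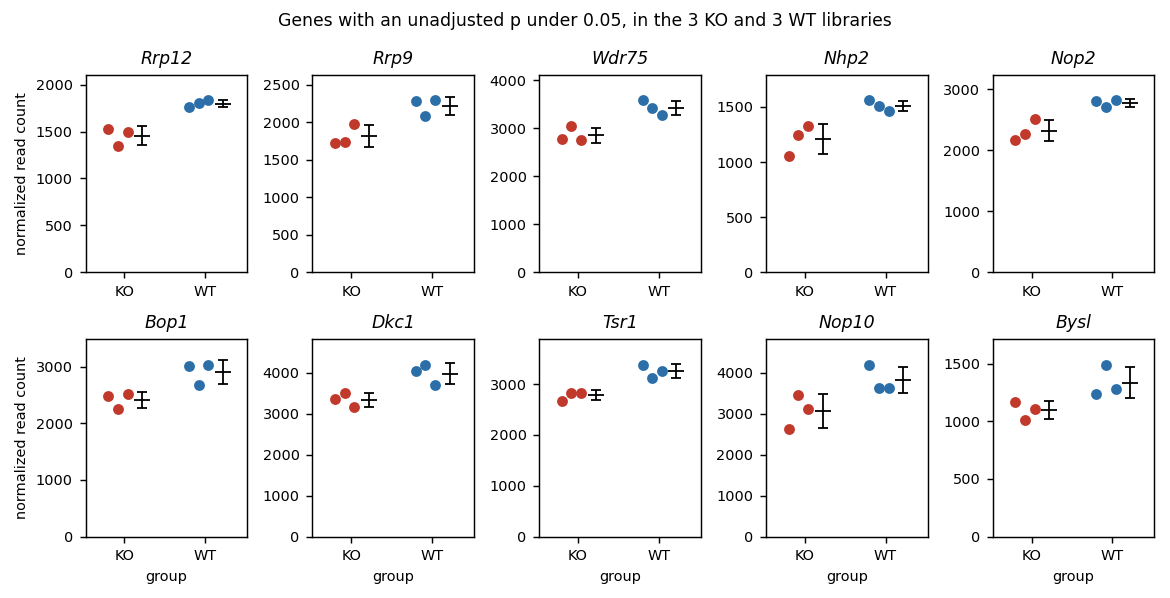
Normalized read counts, on axes that start at 0, of the 10 genes with an unadjusted limma p under 0.05, in order of p. Dots are the 3 KO libraries (red, left) and the 3 WT libraries (blue, right), with mean and SD beside them. In each panel all KO dots lie below all WT dots, with KO means at 80.0% to 85.3% of the WT means.

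Curated RefSeq transcripts numbered 1 for 29 of the 39 genes and several for the other 10, which were Npm1, Gnl3, Polr1e, Ubtf, Nop56, Dkc1, Nhp2, Wdr12, Rrp1b and Nip7. The level of the whole gene is uncertain for each of these 10, since the row stands for 1 transcript. Among the 29 genes with a single transcript, whose row does not compete with another row of the gene, the median was -0.11, 8 were lower at an unadjusted limma p under 0.05 and 12 lay wholly lower. Among the other 10 the median was -0.18, 2 were lower at that p and 3 lay wholly lower. Over all rows 5.84% were lower at that p and 9.58% lay wholly lower. The split by number of transcripts was chosen after the data were seen. The standard error of a log2 fold change was 0.08 to 0.50 over the 39 genes, with a median of 0.11.

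Other genes of the same pathway, in 4 lists, also leaned lower. Of 148 tested, limma called 0 higher and 0 lower, and the median was -0.10. At an unadjusted limma p under 0.05, 20 were lower and 2 higher, against 5.84% and 6.84% of all rows. KO values lay wholly lower in 35 of them (23.6%) and wholly higher in 4, against 9.58% and 9.21% of all rows. Without KO3, when 4.32% of all rows were called, limma called 3 of the 148, all lower (Bud23, Imp3 and Ppan). In that fit 31 were lower and 7 higher at an unadjusted limma p under 0.05, against 9.48% and 11.6% of all rows. The median was then -0.11. With 50 small subunit factors tested in all 6 libraries, 8 were lower (16%, against 5.84% of all rows) and 1 higher at that p. Bud23, the methyltransferase of the small ribosomal RNA, averaged 1126 ± 82.3 in KO libraries and 1451 ± 72.7 in WT libraries (SD, n = 3 each; limma adjusted p 0.146). Imp3 and Emg1, which act with the U3 snoRNP and in base modification, had log2 fold changes of -0.35 (SE 0.09) and -0.26 (SE 0.08).

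With 53 large subunit factors, 8 were lower (15.1%, against 5.84% of all rows) and 0 higher at that p. Nle1, a partner of the Mdn1 motor, was at 785, 944 and 909 in KO libraries, against 1231, 1102 and 1138 in WT libraries (-0.40, SE 0.11; limma adjusted p 0.155). Ppan and Noc2l were at -0.37 (SE 0.11) and -0.29 (SE 0.09). With 15 further RNA polymerase I genes, 2 were lower (13.3%, against 5.84% of all rows) and 0 higher at that p. They were Taf1d at -0.36 (SE 0.13) and Nop53 at -0.31 (SE 0.09). The Taf1d row, NR_028401, is a non-coding transcript of a gene whose protein belongs to the polymerase I initiation factor, so this value is not that of its coding RNA. Nop53 stood in that list although it acts in large subunit assembly. Polr1d, at -0.23 (SE 0.11), was the third by p.

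With 30 genes of snoRNP assembly, the RNA exosome and RNase MRP, 2 were lower and 1 was higher at that p. The lower share of 6.67% was near the 5.84% of all rows, and the median was -0.08. Pop5, a protein of RNase MRP, averaged 1287 ± 18.7 in KO libraries and 1625 ± 135 in WT libraries (SD, n = 3 each), a log2 fold change of -0.33 (SE 0.09). Exosc6, an exosome subunit, was at -0.38 (SE 0.14) with overlap. Shq1, the chaperone of newly made dyskerin, went the other way. It was at 569, 644 and 548 in KO libraries, against 473, 449 and 457 in WT libraries, wholly higher in KO cells (0.35, SE 0.11; limma adjusted p 0.216), while its client Dkc1 lay wholly lower.

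Among 21 tested genes of the MYC network and of the response to nucleolar stress, limma called 0 higher and 0 lower. Their median was -0.05. At an unadjusted limma p under 0.05, 2 were higher and 3 lower, against 6.84% and 5.84% of all rows. Without KO3 limma called 1 of the 21, Sirt7, lower, when it called 4.32% of all rows. Sirt7, a deacylase that promotes polymerase I transcription, averaged 4777 ± 521 in KO libraries and 6252 ± 449 in WT libraries (SD, n = 3 each; -0.39, SE 0.10). Maf1, a repressor of RNA polymerase III, was at -0.50 (SE 0.17). Rpl5, a ribosomal protein that restrains Mdm2 when assembly fails, was at -0.42 (SE 0.11). Of the genes named from these further lists, Bud23, Noc2l, Taf1d, Polr1d, Sirt7 and Maf1 have several curated transcripts, with the same uncertainty for the whole gene.

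RNA of the ribosomal protein genes differed more in these libraries than RNA of the biogenesis genes, side by side and with no test of that difference. Of 86 tested cytosolic ribosomal protein genes, limma called 0 higher and 0 lower, and the median was -0.38. At an unadjusted limma p under 0.05, 73 were lower and 1 was higher, against 5.84% and 6.84% of all rows. In KO libraries 73 (84.9%) lay wholly lower, against 9.58% of all rows. The smallest p values were those of Rplp1 (log2 fold change -0.50; limma adjusted p 0.0578), Rpl39 (-0.64; adjusted p 0.0787) and Rps2 (-0.49; adjusted p 0.0810). Without KO3 limma called 13 of the 86, all lower and these 3 among them, against 1.55% of all rows called lower. The median of the 86 was then -0.41. They took 9.52%, 11.4% and 11.9% of all normalized counts in KO1, KO2 and KO3, against 14.3%, 14.1% and 13.2% in WT1, WT2 and WT3. Their shares did not overlap between the groups, unlike those of the 39 biogenesis genes.

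**Figure D4:**
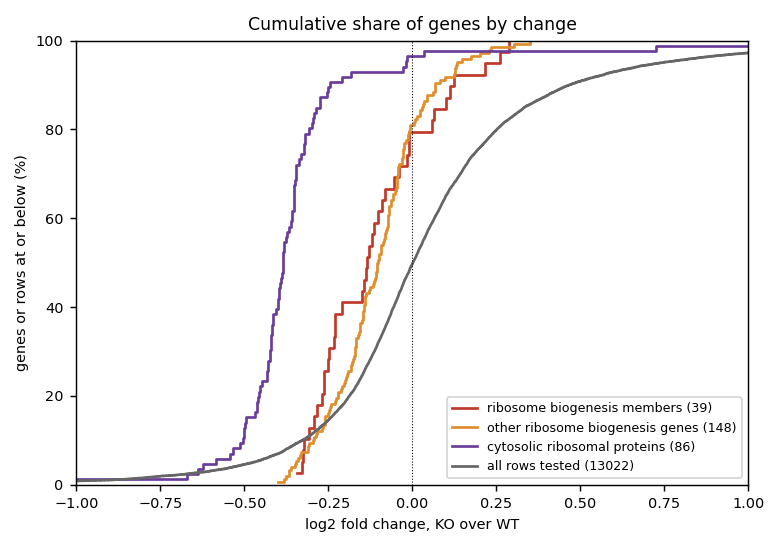
The share of genes (rows, for the grey line) at or below each log2 fold change, KO over WT, for the 39 ribosome biogenesis genes, the other 148 genes of the pathway, 86 ribosomal protein genes and all 13022 rows tested, with the axis limited to 1 in either direction. At their medians the lines of the biogenesis genes lie left of that of all rows and right of that of the ribosomal proteins. The medians are -0.14, -0.10, -0.38 and 0.0019, in the order listed. Toward the ends of the axis this order does not hold.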

How the data were processed

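Per the submitters' processing notes, the tools were STAR, HTSeq and DESeq2 and the build was mm10; versions and roles are not given there. The table that the authors deposited has 19048 rows on a log10 scale. Taking 10 to the power of a value and subtracting 1 gave whole reads times 1 step per library in 100% of cases (within 0.01). The deposited log10 values are therefore of normalized read counts plus 1. Rows carry RefSeq accessions. A RefSeq table of GRCm38.p6 named 18807, GENCODE M21 named 108, and 133 stayed unnamed.

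From these, limma 3.58.1 in R 4.3.3 was fitted with the empirical Bayes trend on log2 of the normalized count plus 1, over all 6 libraries with no covariate. The 13022 rows with a mean of at least 10 were tested, two-sided, with Benjamini-Hochberg adjustment over all of them and a threshold of 0.05. The fit was tested on simulated data. With 3 libraries against 3, an exact permutation test of a single gene cannot go below 0.1. The 40 genes, their roles and the other lists were chosen with earlier results of these data known. Genes to describe were all 40, Trim28, and the 3 with the smallest p in each further list. Markers of 11 cell kinds were summed per library. Alternatives were the pseudocount (0.5 and 8), the filter (none and 50), 3 other scalings, no trend, voom weights, rows summed per gene, a replicate block and leaving out each library. A Y-linked covariate, from 4 Y-linked genes, and the genes with 1 transcript were added after seeing the data.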

Additional observations from a re-analysis of the deposited data

How the results depend on the processing

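No gene of the list was called under any of the 18 other settings, where the smallest adjusted p was 0.0685. The median of the 39 stayed below 0 in all of them. Total count scaling moved it to -0.081 and left 27 rows called lower in all. It gave 3 of the 39 lower and 1 higher at an unadjusted limma p under 0.05, against 3.39% and 9.56% of all rows. There 8 lay wholly lower and 2 wholly higher, against 5.24% and 13.5% of all rows. This scaling divides a library by 1 factor, which shifts nearly all rows alike on the log2 scale. The median over all rows moved with the list, from 0.0019 to 0.057. Why the totals of the libraries differed was not tested. Quantile normalization gave 13 of the 39 lower and 1 higher at that p, against 7.1% and 5.68% of all rows. There 15 lay wholly lower and 2 wholly higher, against 11.5% and 7.46% of all rows. The Y-linked covariate gave 13 lower and 1 higher at that p, against 5.91% and 6.77% of all rows. Without the trend 124 rows were called, against 196, and 17 of them lower. Leaving out 1 library each gave 95 to 360 rows called higher and 14 to 202 called lower. It gave 2 to 11 of the 39 lower and 0 to 1 higher at an unadjusted limma p under 0.05. Over all rows those shares were 3.06% to 9.48% and 4.5% to 11.6%. Of the 39, 16 to 17 lay wholly lower and 1 to 3 wholly higher, against 12.1% to 18.9% and 11.6% to 19.8% of all rows.

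Of 39 genes, 28 kept their sign throughout. The other 11 had main values of at most 0.14 in size. Total count scaling turned Fbl to 0.046, Gnl2 to 0.0025, Pes1 to 0.046, Rrn3 to 0.018 and Utp20 to 0.039, and quantile normalization turned Gar1 to -0.0021. Leaving out 1 library, values ran from -0.043 to 0.22 for Ddx21, -0.12 to 0.093 for Fbl, -0.10 to 0.22 for Gar1, -0.090 to 0.017 for Gnl2, -0.23 to 0.019 for Ltv1, -0.087 to 0.16 for Mybbp1a, -0.36 to 0.037 for Nip7, -0.15 to 0.020 for Nop16, -0.055 to 0.047 for Pes1, -0.10 to 0.030 for Rrn3 and -0.069 to 0.073 for Utp20.

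Same-numbered libraries did not deviate together in every pair (correlations of -0.31, 0.26 and 0.36 for numbers 1, 2 and 3). Deviations from a mean of 3 libraries are tied to each other, so these values cannot show whether the libraries were paired. With the replicate block, 175 rows were called, against 196, and 0 of the 39. Rows under a mean of 50, Polr1e and Nip7, are limited by depth.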
